A study of Homo sapiens with 9 samples.

Results

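The genes described here are 44 transcripts of the ATF4 response: its transcription factors, its stress effectors, the enzymes and transporters that supply amino acids, and the cytosolic aminoacyl-tRNA synthetases. They were taken by gene symbol, the first row of each symbol being used, out of the 30000 rows of a read count table from THP-1 cells, and all 44 were found and passed the filter on low counts. THP-1 is a human monocytic leukaemia line. The 9 libraries form 3 groups of 3: cells labelled Ctrl, to which no agent is assigned, cells given ectosomes labelled with a scramble shRNA (Scramble_Ecto), and cells given ectosomes labelled with a PKM2 knockdown (PKM2_KD_Ecto). Ectosomes are vesicles shed from the plasma membrane, and here they came from Huh7, a human hepatoma line. The shRNA labels are read as belonging to the Huh7 cells that shed the ectosomes, since every group is the same THP-1 line. The design asks whether such ectosomes change gene expression of the recipient cells and whether that depends on PKM2, a pyruvate kinase isoform, in the donor. The sources used here give neither the dose, preparation and time of exposure of the ectosomes nor how completely PKM2 was depleted.

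ATF4 is a basic leucine zipper factor of the integrated stress response. Stress kinases phosphorylate the initiation factor eIF2, general translation drops, and the ATF4 messenger is translated better, so that the protein can rise without its transcript. ATF4 binds DNA as a dimer with C/EBP proteins and induces genes for amino acid import, serine, glycine, asparagine and proline synthesis and the charging of tRNA, together with regulators that feed back on the stress response. In monocytes and macrophages the same genes support translation and secretion and are known to respond to endoplasmic reticulum stress and to amino acid supply.

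The sequence element named for this pairing, the C/EBP-ATF response element, was searched as TGATGNAA on the gene strand or TTNCATCA for its complement, in windows from 250 bases before to 50 bases after each RefSeq gene start (GRCh38.p14). Windows were found for 36 of the 44 genes. The element was in 14 of these 36 genes and in 14 of their 54 windows (25.9%), against 1270 of all 35116 windows (3.62%). Among the 16 synthetase genes with windows 7 held it, and among the 6 transporter genes 4 held it. The stretches around these matches are shown because they are what the 14 genes share beyond the naming of the module. Letters run 5′ to 3′ on the gene strand, and capitals mark the match, which is a description of the letters and not a shown binding site. RefSeq gives the synthetase symbols with a final 1 (AARS1 for AARS). PSPH, SHMT2, PYCR1, SLC7A11, DARS, LARS, VARS and YARS had no window.
CEBPG (chr19:33374060-33374089, plus strand): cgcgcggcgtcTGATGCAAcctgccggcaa
CHAC1 (chr15:40953251-40953280, plus strand): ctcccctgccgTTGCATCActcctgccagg
ASNS (chr7:97872458-97872487, minus strand): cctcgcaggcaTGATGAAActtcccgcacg
SLC3A2 (chr11:62881725-62881748, plus strand): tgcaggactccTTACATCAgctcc
SLC7A1 (chr13:29595663-29595692, minus strand): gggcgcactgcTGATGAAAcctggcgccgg
SLC1A4 (chr2:64989381-64989410, plus strand): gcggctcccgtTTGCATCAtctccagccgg
SLC1A5 (chr19:46784893-46784922, minus strand): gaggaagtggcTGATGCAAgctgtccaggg
AARS (chr16:70289675-70289704, minus strand): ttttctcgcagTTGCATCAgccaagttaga
CARS (chr11:3057407-3057436, minus strand): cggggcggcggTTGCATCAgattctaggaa
GARS (chr7:30594834-30594863, plus strand): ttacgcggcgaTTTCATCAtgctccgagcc
IARS (chr9:92293692-92293721, minus strand): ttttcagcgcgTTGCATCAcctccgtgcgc
MARS (chr12:57488053-57488082, plus strand): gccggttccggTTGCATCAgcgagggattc
NARS (chr18:57621804-57621833, minus strand): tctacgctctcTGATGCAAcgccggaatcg
TARS (chr5:33440956-33440985, plus strand): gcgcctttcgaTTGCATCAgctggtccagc

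Libraries held 17744587 to 23864381 counts. Levels are CPM, counts divided by the library's TMM-scaled total and multiplied by 1000000. A log2 change is the fitted log2 fold change ± its standard error, and calls are made at an adjusted p under 0.05 in edgeR's quasi-likelihood test over 18437 rows. The labels do not say that replicates were separate cultures, so the p-values describe the scatter of these libraries alone, and that scatter may be technical. In bulk RNA, fewer cells expressing a gene and less RNA per cell cannot be told apart. PKM, counted without separating isoforms, was at 650.3 ± 195, 3500.3 ± 108 and 2313 ± 137 CPM (mean ± SD, n = 3) in Ctrl, Scramble_Ecto and PKM2_KD_Ecto cells, and since the knockdown is read as one in the donor cells, this does not check the labels. Control replicate 3 stood apart: its counts differed from those of the other controls by a chi-square per degree of freedom of 43.6 and 40.1, against 4.69 between control replicates 1 and 2.

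Most of the module was higher with scramble ectosomes and lower again with PKM2-knockdown ectosomes. With scramble ectosomes 28 of the 44 genes were called higher than in control cells and 6 lower, where 34.6% of all rows tested were called higher and 33.2% lower. Between the ectosomes, 36 of the 44 were called lower with the PKM2 knockdown and 2 higher, DARS and QARS, against 30.3% and 31.4% of all rows. The median log2 fold change of the module was 0.80 in the first comparison and -0.99 in the second, beside -0.01 and 0.03 over all rows. Of the 36 genes lower with the knockdown, 22 were at least 2-fold lower. In 38 of the 44 genes every PKM2_KD_Ecto library was below every Scramble_Ecto library and in 3 above, which held for 37.1% and 37.4% of all rows. Every Scramble_Ecto library was above every control in 30 genes and below in 6, beside 36.7% and 34.6% of all rows. These comparisons share the Scramble_Ecto libraries, so their opposite directions are not independent of each other.

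With PKM2-knockdown ectosomes the genes were more often below than above the control level. Against control, 24 of the 44 genes were called lower and 3 higher, where 26.7% and 27.0% of all rows were, and the median was -0.40 beside -0.01. Groups did not overlap in 19 lower and 5 higher genes, beside 29.8% and 30.7% of all rows. The 3 higher genes were PPP1R15A, SLC7A5 and DDIT4. With scaling by library totals alone, which moves the median of all rows by about 0.2 (to -0.21 with scramble ectosomes against control and to 0.20 between ectosomes), 27 genes were higher and 7 lower in the first comparison and 4 higher and 30 lower in the second. Higher calls then made up 40.2% rather than 51.0% of all calls in the first comparison and 61.9% rather than 50.9% in the second.

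**Figure D1:**
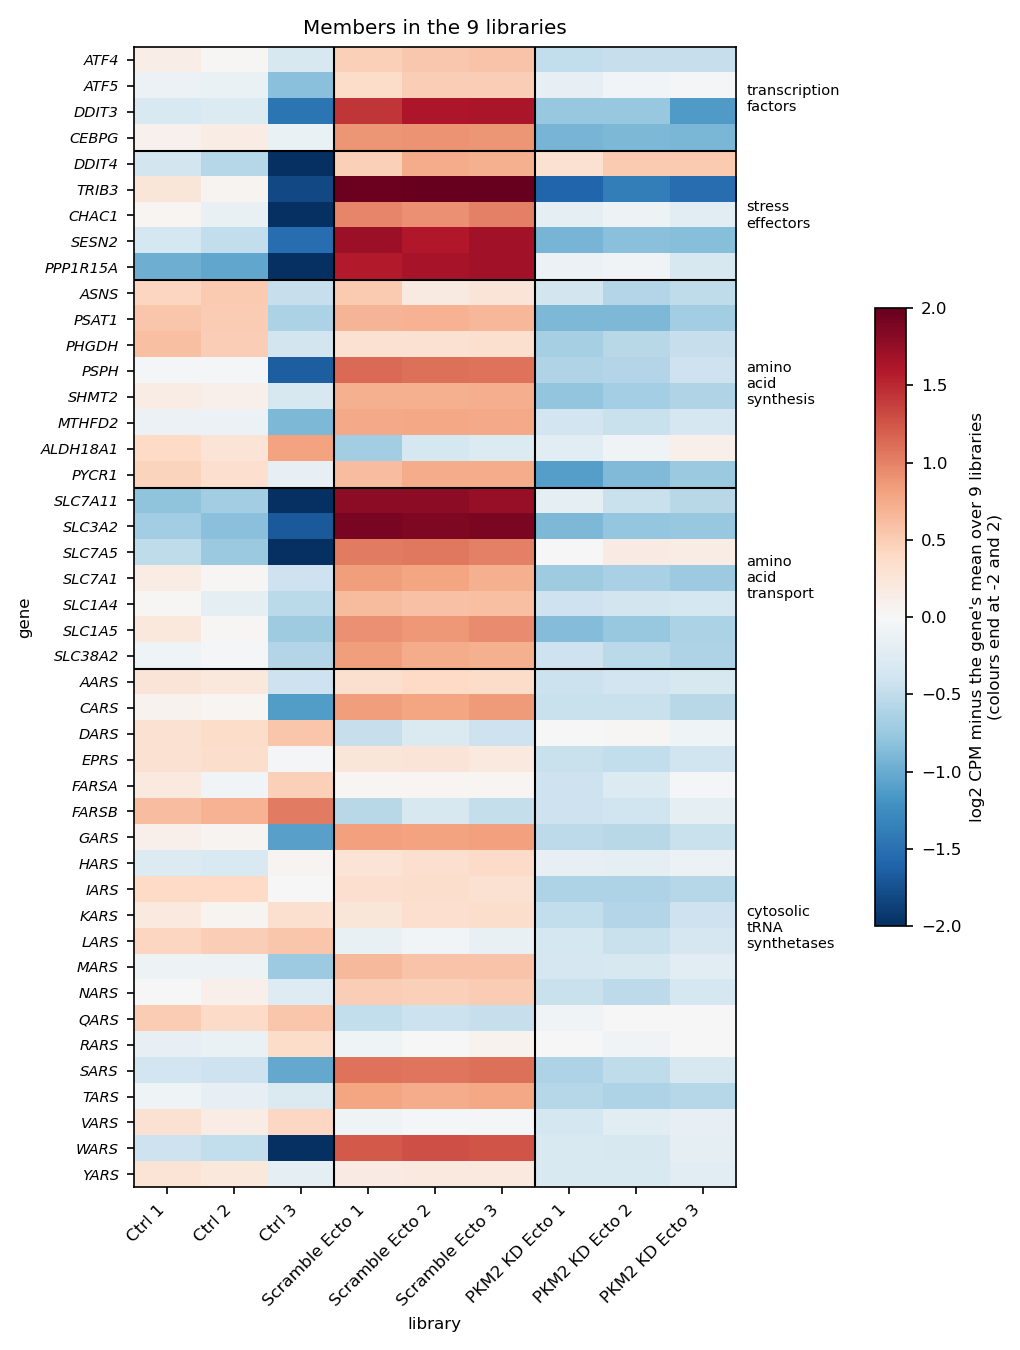
Log2 CPM of each of the 44 genes (rows, by role) in each of the 9 libraries (columns), minus the gene's mean over the 9 libraries; red is above and blue below that mean, and colours end at -2 and 2. The Scramble_Ecto columns are mostly red, the PKM2_KD_Ecto columns mostly blue, and Ctrl 3 is bluer than Ctrl 1 and Ctrl 2 in 34 of the 44 genes.

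Control replicate 3 was the lowest control in 34 of the 44 genes and the highest in the other 10. Its level was a median 0.667 times the mean of the other controls, from 0.217 to 1.43, and 0.275 times in the stress effectors. The within-group coefficient of variation had a median over the genes of 22.1% in control cells, 2.52% with scramble ectosomes and 5.25% with PKM2-knockdown ectosomes. Without this library 29 genes were higher and 7 lower with scramble ectosomes, where 36.9% and 34.7% of all rows were. Between ectosomes 3 were then higher and 39 lower, beside 36.1% and 35.4%. Against control, PKM2_KD_Ecto cells then had 5 genes higher and 33 lower, beside 29.1% and 28.6%, so the count of lower genes in that comparison depends on this library.

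All 4 transcription factors were higher with scramble ectosomes and lower with PKM2-knockdown than with scramble ectosomes, with medians of 0.81 and -1.40. Of all rows, 34.6% were called higher in the first of these comparisons and 30.3% lower in the second. ATF4 (chromosome 22, 39519695 to 39522685, plus strand, GRCh38, GENCODE 29) stood at 859, 792 and 624 CPM in the control libraries, 1085, 1141 and 1167 CPM with scramble ectosomes and 555, 567 and 568 CPM with knockdown ectosomes. The 3 groups did not overlap, and the knockdown libraries were lowest. The transcript was 1.49-fold higher with scramble ectosomes (log2 change 0.58 ± 0.11, adjusted p = 0.000711), 2.01-fold lower with knockdown than with scramble ectosomes (log2 change -1.0 ± 0.11, adjusted p = 1.9e-05) and 1.35-fold lower than in control (log2 change -0.43 ± 0.11, adjusted p = 0.00664). CEBPG, C/EBP gamma, a dimer partner of ATF4 (chromosome 19, 33373330 to 33382686, plus strand), was at 134, 139 and 116 CPM, 233, 234 and 232 CPM and 66.4, 67.8 and 66.8 CPM in the same order of groups. It followed the same order as ATF4 with wider steps and no overlap, 1.8-fold higher with scramble ectosomes (log2 change 0.85 ± 0.08, adjusted p = 4.2e-06) and 3.48-fold lower with the knockdown (log2 change -1.80 ± 0.08, adjusted p = 5.97e-08). Its window holds the element shown above.

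DDIT3, which encodes CHOP, a factor induced late in the stress response (chromosome 12, 57516588 to 57521737, minus strand), was at 37.0, 37.8 and 16.5 CPM in control, 123, 139 and 142 CPM with scramble and 26.9, 26.9 and 20.9 CPM with knockdown ectosomes. The knockdown libraries lay within the range of the controls and far below the scramble libraries. DDIT3 rose 4.42-fold with scramble ectosomes (log2 change 2.14 ± 0.25, adjusted p = 2.19e-05) and was 5.41-fold lower with the knockdown (log2 change -2.44 ± 0.25, adjusted p = 1.42e-05). Against control it was not called (log2 change -0.29 ± 0.25, adjusted p = 0.352) unless control replicate 3 was left out (log2 change -0.59, adjusted p = 3.36e-05). Of its exon bases 31.6% are shared with MARS or MBD6 on the other strand, and the strand setting of the counting is not given, so part of its reads cannot be told apart from theirs. ATF5, a related zipper factor (chromosome 19, 49928702 to 49933935, plus strand), had 349.8, 346 and 213 CPM, 488, 533 and 530.3 CPM and 338, 366 and 368 CPM. Control and knockdown libraries overlapped, and the scramble libraries were above both. The rise with scramble ectosomes was 1.71-fold (log2 change 0.77 ± 0.16, adjusted p = 0.00134), and the level was 1.45-fold lower with the knockdown (log2 change -0.53 ± 0.16, adjusted p = 0.0133). That second call ended without PKM2_KD_Ecto replicate 1 and with scaling by library totals, the adjusted p running from 5.07e-08 to 0.088 over 15 alternatives. ATF5 shares 21.2% of its exon bases with IL4I1 and NUP62 on the other strand. IL4I1 was at 70.2 ± 56.8, 485 ± 24 and 625 ± 30.6 CPM, lowest in control and highest with knockdown ectosomes. The part of its reads in the level of ATF5 was not tested.

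**Figure D2:**
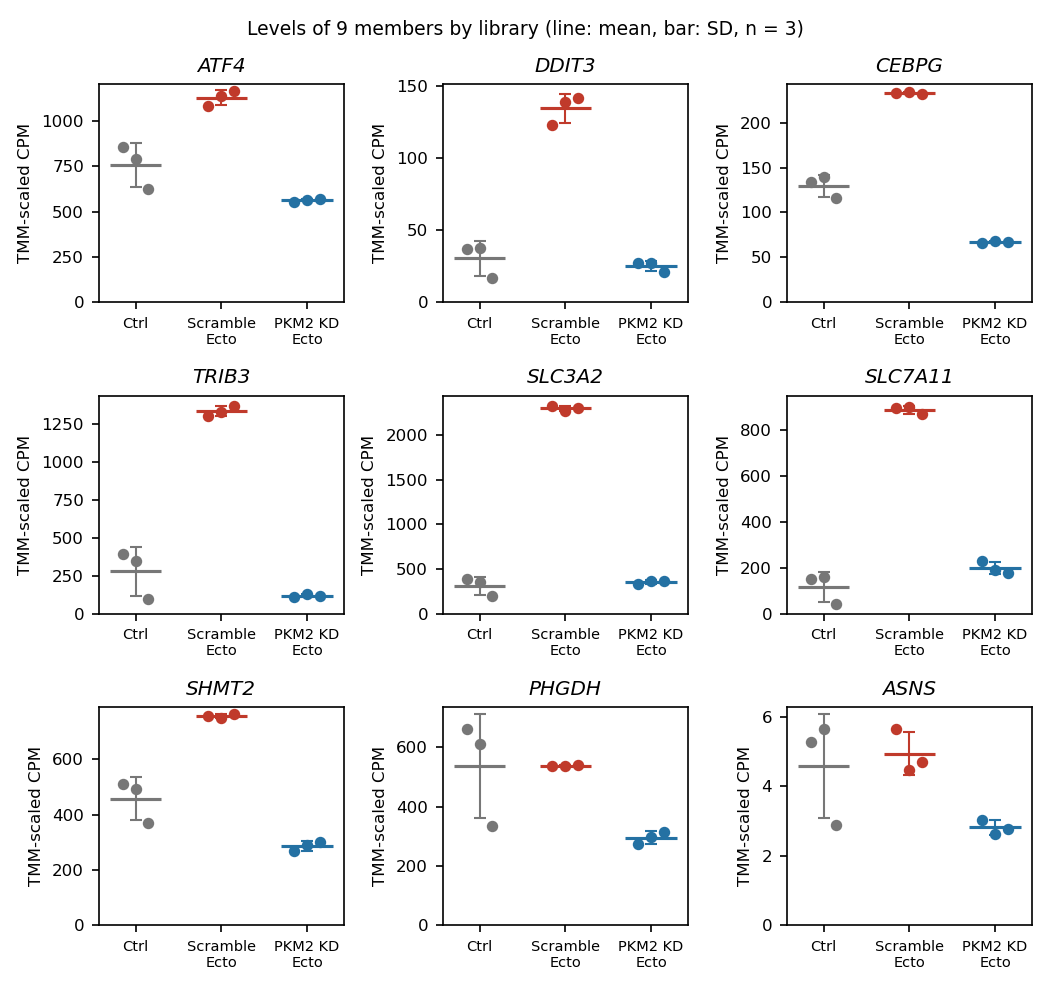
TMM-scaled CPM of 9 genes in each library (points), with the group mean (line) and SD (bar, n = 3), each axis starting at 0. In 7 of the panels the Scramble_Ecto points lie above all others; in PHGDH and ASNS they lie within or near the range of Ctrl 1 and Ctrl 2, and the PKM2_KD_Ecto points are low.

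The 5 stress effectors were all higher with scramble ectosomes, with a median of 2.26 on the log2 scale, beside 34.6% of all rows. With the knockdown 4 of the 5 were lower than with scramble ectosomes, with a median of -1.80, beside 30.3% of all rows. TRIB3, a pseudokinase that binds ATF4 and restrains it (chromosome 20, 362835 to 397559, plus strand), had 394, 346 and 94.8 CPM in control, 1303, 1328 and 1369 CPM with scramble and 111, 127 and 116 CPM with knockdown ectosomes. Control replicates 1 and 2 were above the knockdown libraries and control replicate 3 was below them. TRIB3 was 4.79-fold higher with scramble ectosomes (log2 change 2.26 ± 0.39, adjusted p = 0.000384) and 11.3-fold lower with the knockdown (log2 change -3.50 ± 0.41, adjusted p = 3.27e-05), the largest difference between ectosomes among the 44 genes. Against control it was 2.36-fold lower (log2 change -1.24 ± 0.38, adjusted p = 0.0178), a call that ended without control replicate 1 or 2 or without PKM2_KD_Ecto replicate 1 or 3, with adjusted p from 1.08e-13 to 0.067 over the alternatives. SESN2, a leucine-sensing inhibitor of mTORC1 (chromosome 1, 28259527 to 28282491, plus strand), was at 75.3, 68.5 and 33.3 CPM, 313, 293 and 307 CPM and 50.7, 53.8 and 53.1 CPM. The knockdown libraries lay inside the control range, and the scramble libraries were far above. SESN2 rose 5.15-fold (log2 change 2.36 ± 0.23, adjusted p = 5.91e-06) and was 5.79-fold lower with the knockdown (log2 change -2.53 ± 0.24, adjusted p = 6.14e-06).

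PPP1R15A, or GADD34, which brings a phosphatase to eIF2 (chromosome 19, 48872392 to 48876057, plus strand), had 80.7, 76.8 and 30.4 CPM, 474, 494 and 506 CPM and 146, 151 and 127 CPM. The groups did not overlap, and here the knockdown libraries were between the other groups rather than at or below control. It was 7.83-fold higher with scramble ectosomes (log2 change 2.97 ± 0.29, adjusted p = 5.47e-06), 3.47-fold lower with the knockdown (log2 change -1.80 ± 0.28, adjusted p = 0.000227) and still 2.25-fold above control (log2 change 1.17 ± 0.28, adjusted p = 0.00427). DDIT4, or REDD1, another inhibitor of mTORC1 (chromosome 10, 72273920 to 72276036, plus strand), was at 209.7, 182 and 53.9 CPM, 375, 453 and 442 CPM and 335, 391 and 391 CPM. Both kinds of ectosomes gave levels above every control, and their libraries overlapped with each other. DDIT4 was 2.85-fold above control with scramble ectosomes (log2 change 1.51 ± 0.37, adjusted p = 0.00368) and 2.51-fold above it with knockdown ectosomes (log2 change 1.33 ± 0.36, adjusted p = 0.0103), while the difference between ectosomes was not called (log2 change -0.18 ± 0.36, adjusted p = 0.673). Without control replicate 3 that difference was called at log2 change -0.19, adjusted p = 0.0351. Of the DDIT4 exon bases 41.2% are shared with DDIT4-AS1 on the other strand.

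CHAC1, an enzyme that degrades glutathione (chromosome 15, 40952962 to 40956519, plus strand), had 68.8, 60.4 and 14.0 CPM, 133, 127 and 136 CPM and 59.8, 62.5 and 57.3 CPM. The scramble libraries were above all others, and the knockdown libraries were below control replicate 1 and far above control replicate 3. It was 2.75-fold higher with scramble ectosomes (log2 change 1.46 ± 0.40, adjusted p = 0.00772) and 2.2-fold lower with the knockdown (log2 change -1.14 ± 0.40, adjusted p = 0.0283). The second call ended without any 1 of the 3 Scramble_Ecto or 3 PKM2_KD_Ecto replicates, in DESeq2 and with scaling by library totals. Its adjusted p ran from 1.56e-12, with only the compared groups fitted, to 0.0827, and was 4.1e-12 without control replicate 3. The main fit takes its estimate of a gene's spread from all 9 libraries, controls included. The libraries of the ectosome groups did not overlap.

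Among the 8 genes of amino acid synthesis 7 were lower with knockdown than with scramble ectosomes, with a median of -1.27, where 30.3% of all rows were lower. With scramble ectosomes against control 4 were higher and 1 lower, beside 34.6% and 33.2% of all rows. Serine is made from glycolytic phosphoglycerate by PHGDH, PSAT1 and PSPH in turn, and of these PSPH alone was called with scramble ectosomes. PHGDH, the first step (chromosome 1, 119648411 to 119744226, plus strand), was at 661, 613 and 334 CPM in control, 537, 537 and 542 CPM with scramble and 274, 296 and 316 CPM with knockdown ectosomes. The scramble libraries lay inside the control range, below control replicates 1 and 2, and every knockdown library was below every other library. PHGDH was not called with scramble ectosomes (log2 change 0.01 ± 0.20, adjusted p = 0.981), and without control replicate 3 it was called lower (log2 change -0.24, adjusted p = 0.00189). With the knockdown it was 1.82-fold lower than with scramble ectosomes (log2 change -0.87 ± 0.20, adjusted p = 0.00317) and 1.82-fold lower than in control (log2 change -0.86 ± 0.20, adjusted p = 0.00395). PSAT1, the next step (chromosome 9, 78297143 to 78330093, plus strand), had 493, 476 and 216 CPM, 537, 540.1 and 530.3 CPM and 179, 179 and 206 CPM. Scramble libraries were slightly above control replicates 1 and 2, and knockdown libraries were below all controls. The rise was not called (log2 change 0.44 ± 0.24, adjusted p = 0.124), and the level was 2.85-fold lower with the knockdown (log2 change -1.51 ± 0.24, adjusted p = 0.000315). PSPH, the last step (chromosome 7, 56011051 to 56051604, minus strand), had 82.5, 82.4 and 26.9 CPM, 186, 181 and 181 CPM and 55.8, 56.3 and 63.7 CPM. It was 2.85-fold higher with scramble ectosomes (log2 change 1.51 ± 0.31, adjusted p = 0.00138) and 3.12-fold lower with the knockdown (log2 change -1.64 ± 0.32, adjusted p = 0.00102), back inside the control range.

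The mitochondrial branch that turns serine into glycine and one-carbon units had the same order of groups as PSPH. SHMT2, which splits serine, rose from 457 ± 77.4 CPM (mean ± SD, n = 3) to 757 ± 5.77 CPM and was 2.65-fold lower with the knockdown, at 286 ± 17.4 CPM (log2 change -1.40 ± 0.12, adjusted p = 2.87e-06). MTHFD2, the folate enzyme after it, rose from 284 ± 79.3 to 605 ± 4.65 CPM and was 2.21-fold lower with the knockdown, at 273 ± 9.78 CPM (log2 change -1.15 ± 0.17, adjusted p = 0.000171). MTHFD2 shares 33.2% of its exon bases with AC006030.1 and SLC4A5 on the other strand. Proline is made from glutamate by ALDH18A1 and then PYCR1, and with scramble ectosomes the first was lower and the second higher than in control. ALDH18A1 (chromosome 10, 95605929 to 95656706, minus strand) was at 42.0, 38.4 and 55.4 CPM, 19.6, 24.9 and 26.2 CPM and 27.5, 30.3 and 34.1 CPM, so that controls were highest and scramble libraries lowest without overlap. It was 1.92-fold lower with scramble ectosomes (log2 change -0.94 ± 0.16, adjusted p = 0.000298) and not called between ectosomes (log2 change 0.38 ± 0.16, adjusted p = 0.0552). PYCR1 (chromosome 17, 81932384 to 81942412, minus strand) was at 112, 104 and 73.3 CPM, 127, 138 and 137 CPM and 38.3, 44.7 and 49.2 CPM, again without overlap. It was 1.39-fold higher with scramble ectosomes (log2 change 0.48 ± 0.14, adjusted p = 0.0129), a call lost with scaling by library totals (adjusted p = 0.14, from 0.00172 to 0.14 over the alternatives), and 3.04-fold lower with the knockdown (log2 change -1.60 ± 0.15, adjusted p = 6.17e-06). MYADML2 shares 14.1% of its exon bases on the same strand.

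ASNS, asparagine synthetase and a commonly used ATF4 target (chromosome 7, 97852118 to 97872542, minus strand), was counted at only 5.27, 5.64 and 2.87 CPM, 5.64, 4.48 and 4.70 CPM and 3.04, 2.63 and 2.78 CPM. Scramble libraries overlapped with control replicates 1 and 2, and knockdown libraries were close to control replicate 3. ASNS was not called with scramble ectosomes (log2 change 0.10 ± 0.23, adjusted p = 0.723) and was 1.75-fold lower with the knockdown (log2 change -0.81 ± 0.24, adjusted p = 0.013). The second call ended without Scramble_Ecto replicate 1 and with scaling by library totals (adjusted p from 0.000109 to 0.0519). A second annotated gene, AC079781.5, shares 44.6% of the exon bases of ASNS on the same strand. It was itself at 1.38 ± 0.603 CPM in control, and how the counting split or dropped the shared reads is not given, so the level of ASNS here is uncertain.

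All 7 amino acid transporters were higher with scramble ectosomes (median 1.01) and lower with knockdown than with scramble ectosomes (median -1.48). The shares of all rows were 34.6% higher and 30.3% lower in these comparisons. SLC3A2 (chromosome 11, 62856102 to 62888875, plus strand) encodes the heavy chain that carries several transporter light chains to the surface. It stood at 385, 349 and 195 CPM in control, 2334, 2276 and 2306 CPM with scramble and 334, 366 and 369.8 CPM with knockdown ectosomes. The scramble libraries were far above the rest, and the knockdown libraries were within the control range. SLC3A2 was 7.45-fold higher with scramble ectosomes (log2 change 2.90 ± 0.21, adjusted p = 5.24e-07), 6.47-fold lower with the knockdown (log2 change -2.69 ± 0.21, adjusted p = 1.59e-06), and not called against control with the knockdown (log2 change 0.20 ± 0.19, adjusted p = 0.404). SLC7A11, its light chain in the cystine and glutamate exchanger (chromosome 4, 138164097 to 138242349, minus strand), was at 149, 160.1 and 42.0 CPM, 899, 900.4 and 870.1 CPM and 229, 191 and 177 CPM. Its groups did not overlap, with knockdown libraries a little above control. SLC7A11 was 7.6-fold higher with scramble ectosomes (log2 change 2.93 ± 0.39, adjusted p = 5.45e-05) and 4.47-fold lower with the knockdown (log2 change -2.16 ± 0.37, adjusted p = 0.000501). Against control the knockdown group was not called (log2 change 0.77 ± 0.36, adjusted p = 0.0977) unless control replicate 3 was left out (log2 change 0.36, adjusted p = 0.00102). SLC7A11 shares 8.97% of its exon bases with SLC7A11-AS1 on the other strand.

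SLC7A5, or LAT1, another partner of SLC3A2 that imports large neutral amino acids (chromosome 16, 87830023 to 87869488, minus strand), kept a raised level with knockdown ectosomes. It had 558, 474 and 176 CPM, 1619.8, 1636 and 1598 CPM and 793, 885 and 874 CPM, the knockdown libraries lying between the others without overlap. SLC7A5 was 4.02-fold higher with scramble ectosomes (log2 change 2.01 ± 0.32, adjusted p = 0.000211) and 2.11-fold above control with the knockdown (log2 change 1.08 ± 0.31, adjusted p = 0.0128). Between ectosomes it was 1.9-fold lower (log2 change -0.93 ± 0.31, adjusted p = 0.0224), a call that ended without Scramble_Ecto replicate 1 or 2 or any 1 of the 3 PKM2_KD_Ecto replicates and with scaling by library totals (adjusted p from 1.56e-11 to 0.073). The lowest of these adjusted p came with only the compared groups fitted, and without control replicate 3 the value was 8.79e-11. SLC1A5, or ASCT2, a glutamine carrier (chromosome 19, 46774883 to 46788594, minus strand), was at 359, 316 and 189.7 CPM, 583, 565 and 596 CPM and 169.6, 182 and 199.8 CPM. Knockdown libraries were below control replicates 1 and 2 and overlapped with replicate 3. It rose 2.02-fold (log2 change 1.01 ± 0.19, adjusted p = 0.000599) and was 3.16-fold lower with the knockdown (log2 change -1.66 ± 0.19, adjusted p = 2.62e-05). Its lower level against control (log2 change -0.65 ± 0.19, adjusted p = 0.0124) was not called without PKM2_KD_Ecto replicate 1 (adjusted p from 2.27e-09 to 0.0526 over the alternatives).

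The other transporters, SLC7A1, SLC1A4 and SLC38A2, had smaller rises with scramble ectosomes, at log2 changes of 0.84, 0.82 and 0.98. Between ectosomes each was lower by more than SLC7A5 (-0.93). SLC7A1, which carries arginine and lysine, was at 276 ± 52.8, 494 ± 20.6 and 177 ± 4.91 CPM (mean ± SD, n = 3), 2.79-fold lower with the knockdown than with scramble ectosomes (log2 change -1.48 ± 0.13, adjusted p = 3.2e-06). SLC1A4, a carrier of small neutral amino acids, was at 126 ± 23.6, 222 ± 3.73 and 113 ± 2.54 CPM, 1.97-fold lower (log2 change -0.98 ± 0.12, adjusted p = 3.92e-05). SLC38A2, a sodium-coupled carrier induced when amino acids are scarce, was at 818 ± 163, 1614 ± 70.3 and 663 ± 44.9 CPM, 2.43-fold lower (log2 change -1.28 ± 0.13, adjusted p = 1.4e-05). Per kilobase of exon the scramble group mean was 445 CPM for SLC3A2, above 341 for SLC7A5 and 92.3 for SLC7A11. In control cells the same levels per kilobase were 59.8, 84.9 and 12.1, so by group means the heavy chain gene stood below SLC7A5 there and above it with scramble ectosomes.

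The 20 cytosolic synthetases, which attach amino acids to their tRNAs, were mostly lower with knockdown than with scramble ectosomes: 14 were lower, 2 higher and 4 not called, with a median of -0.71, where 30.3% of all rows were lower and 31.4% higher. With scramble ectosomes against control 8 were higher, 5 lower and 7 not called, with a median of 0.09, which is near the 34.6% higher and 33.2% lower of all rows. Against control 13 were lower with the knockdown, beside 26.7% of all rows. SARS, for serine (chromosome 1, 109213918 to 109238169, plus strand), was at 193, 188 and 125 CPM, 536, 531 and 543 CPM and 165, 177 and 202 CPM. The scramble libraries were above all others, and knockdown and control libraries overlapped. SARS rose 3.18-fold (log2 change 1.67 ± 0.15, adjusted p = 3.1e-06) and was 2.96-fold lower with the knockdown (log2 change -1.56 ± 0.15, adjusted p = 7.95e-06). WARS, for tryptophan, which interferon also induces (chromosome 14, 100333788 to 100376805, minus strand), was at 366, 347 and 117 CPM, 1149.7, 1199 and 1172 CPM and 395, 392 and 428 CPM. Its groups did not overlap, and the knockdown libraries were just above the highest control. WARS rose 4.24-fold (log2 change 2.08 ± 0.32, adjusted p = 0.000185) and was 2.9-fold lower with the knockdown (log2 change -1.53 ± 0.32, adjusted p = 0.00165). TARS, for threonine (chromosome 5, 33440696 to 33469539, plus strand), was at 531, 504 and 461 CPM, 976, 942 and 965 CPM and 379, 368 and 378 CPM, with knockdown libraries below every control. It rose 1.93-fold (log2 change 0.95 ± 0.08, adjusted p = 1.23e-06) and was 2.56-fold lower with the knockdown (log2 change -1.36 ± 0.08, adjusted p = 2.14e-07). RARS, for arginine (chromosome 5, 168486445 to 168519299, plus strand), was at 57.9, 58.9 and 83.4 CPM, 60.6, 64.3 and 67.5 CPM and 64.8, 61.8 and 65.1 CPM. Its 3 groups overlapped, and no comparison called it (log2 change 0.00 ± 0.13, adjusted p = 0.977 between ectosomes). Per kilobase of exon the control means of the 20 genes ran from 9.43 CPM (HARS) to 135 CPM (AARS), and with scramble ectosomes from 7.96 CPM (FARSB) to 225 CPM (GARS).

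GARS, CARS and MARS, for glycine, cysteine and methionine, also rose with scramble ectosomes and were lower with the knockdown. GARS and KARS each code for both the cytosolic and the mitochondrial enzyme. GARS was at 457 ± 180.0, 935 ± 5.92 and 373 ± 13.6 CPM (mean ± SD, n = 3), 2.51-fold lower between ectosomes (log2 change -1.33 ± 0.24, adjusted p = 0.000688). CARS, at 114 ± 44.5, 237 ± 5.40 and 96.1 ± 4.10 CPM, was 2.47-fold lower between ectosomes (log2 change -1.30 ± 0.24, adjusted p = 0.000719) and MARS 1.85-fold lower (log2 change -0.89 ± 0.14, adjusted p = 0.000321). NARS, for asparagine, was at 223 ± 27.6, 323 ± 4.61 and 169 ± 10 CPM, and HARS, for histidine, at 74.1 ± 10.8, 104 ± 4.15 and 74.7 ± 1.78 CPM. They completed the 8, at 1.91-fold and 1.4-fold lower with adjusted p of 1.34e-05 and 0.00144. Another 5 genes, AARS for alanine, EPRS for glutamate and proline, IARS for isoleucine, KARS for lysine and YARS for tyrosine, were not called with scramble ectosomes and were lower with the knockdown than with scramble ectosomes. Their fold changes between ectosomes were -0.74, -0.67, -0.93, -0.81 and -0.46 on the log2 scale. These 5 were also lower than control with the knockdown, the AARS call being lost without control replicate 1 or 2 or any 1 of the 3 PKM2_KD_Ecto replicates and with only the compared groups fitted (adjusted p from 2.42e-08 to 0.107), and the YARS call between ectosomes with scaling by library totals (adjusted p from 1.37e-07 to 0.0562).

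DARS, QARS, LARS, VARS and FARSB went the other way with scramble ectosomes. DARS, for aspartate, fell from 125 ± 11.7 to 71.8 ± 4.44 CPM (log2 change -0.80 ± 0.09, adjusted p = 1.13e-05) and was higher with the knockdown at 92.6 ± 3.41 CPM (log2 change 0.37 ± 0.09, adjusted p = 0.00344). QARS, for glutamine, fell from 205 ± 12.4 to 106 ± 2.21 CPM (log2 change -0.95 ± 0.07, adjusted p = 9.2e-07) and was higher with the knockdown at 144 ± 4.50 CPM (log2 change 0.43 ± 0.07, adjusted p = 0.000398). LARS, for leucine, was lower with scramble ectosomes (log2 change -0.60 ± 0.07, adjusted p = 3.44e-05) and lower still with the knockdown (log2 change -0.26 ± 0.07, adjusted p = 0.0103), the second call ending without PKM2_KD_Ecto replicate 2 and with library totals (adjusted p from 0.000272 to 0.299). FARSB, the beta subunit for phenylalanine, was 2.36-fold lower with scramble ectosomes (log2 change -1.24 ± 0.12, adjusted p = 6.64e-06) and was not called between ectosomes (log2 change 0.11 ± 0.12, adjusted p = 0.445). Its partner subunit FARSA was not called with scramble ectosomes (log2 change -0.18 ± 0.13, adjusted p = 0.229), and its lower level against control with the knockdown (log2 change -0.46 ± 0.13, adjusted p = 0.0123) was not called without PKM2_KD_Ecto replicate 1 or 2 (adjusted p from 0.00281 to 0.058). VARS, for valine, was lower with scramble ectosomes (log2 change -0.34 ± 0.09, adjusted p = 0.00571). Without control replicate 3, FARSA and VARS joined the genes lower between ectosomes, and ALDH18A1 was higher.

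**Figure D3:**
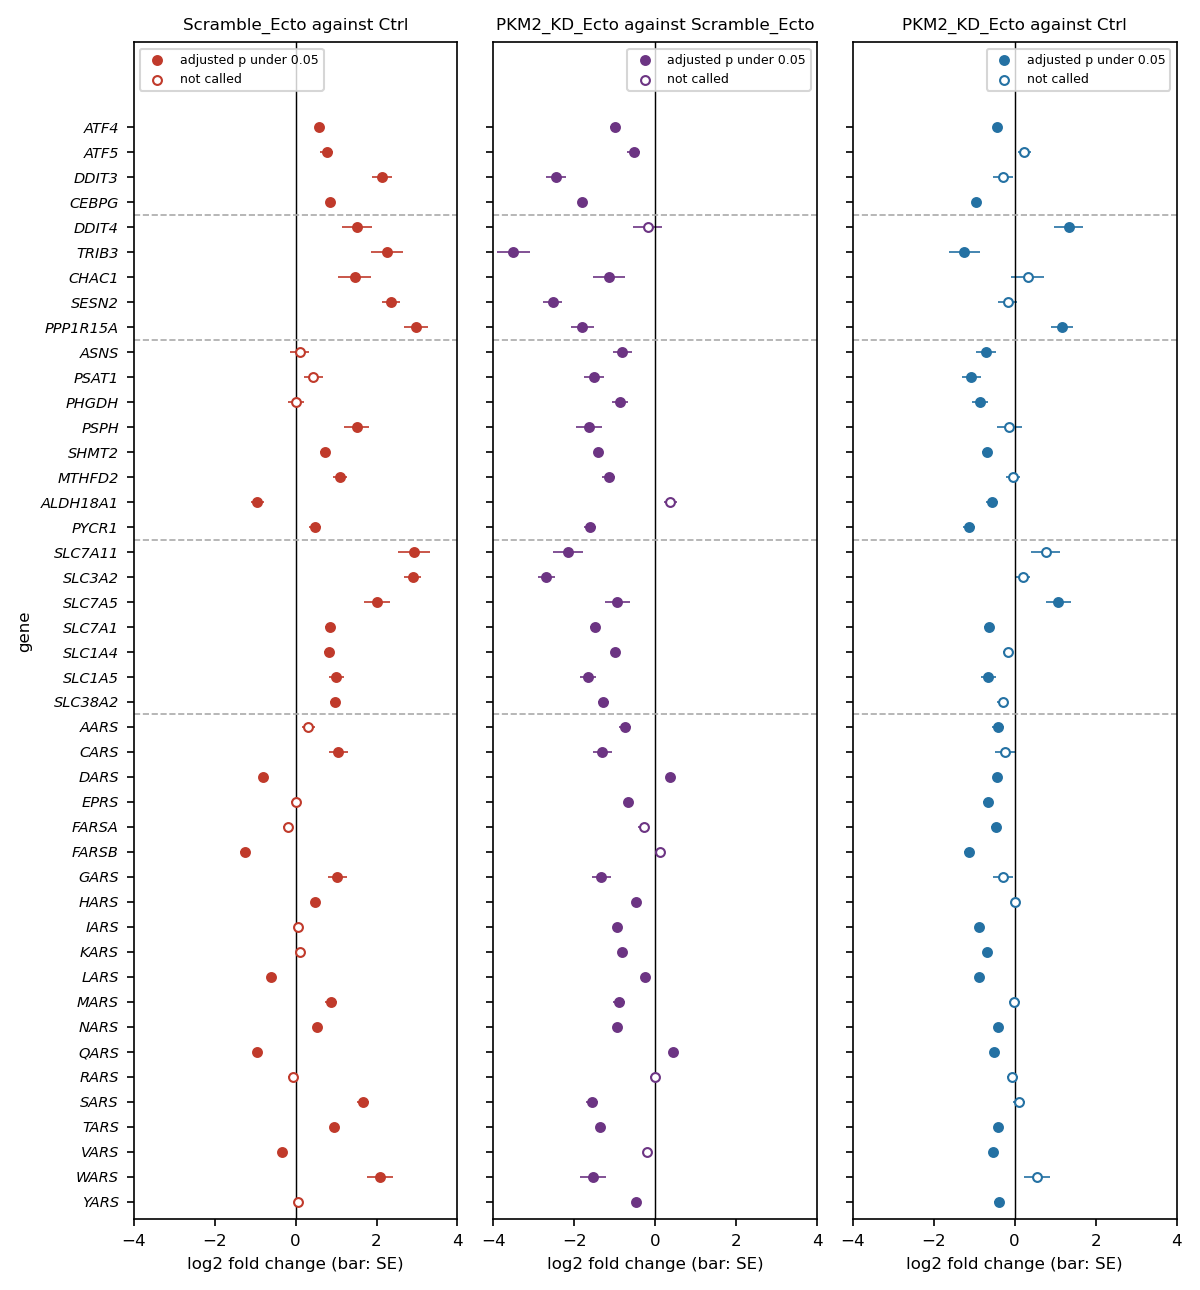
Log2 fold change of the 44 genes (rows, by role, separated by dashed lines) in the 3 comparisons, with the standard error as a bar; filled points have an adjusted p under 0.05. Filled points lie right of 0 for 28 genes in the left panel, left of 0 for 36 genes in the middle panel and left of 0 for 24 genes in the right panel.

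Where synthetases are coded by separate genes for the cytosol and for mitochondria, the pairs show how far the change was shared between compartments. In the 13 such pairs compared, the cytosolic gene had the lower log2 fold change between ectosomes in 10 of 13, the exceptions being LARS, VARS and YARS. With scramble ectosomes against control it had the lower one in 3 of 13. CARS and CARS2 stood at -1.30 and 0.64 between ectosomes, and TARS and TARS2 at -1.36 and 0.33. The 17 mitochondrial synthetases had 6 lower and 4 higher calls between ectosomes, with a median of 0.02, near the 30.3% lower and 31.4% higher of all rows. With scramble ectosomes against control they had 9 lower and 3 higher calls, with a median of -0.42, beside 33.2% and 34.6% of all rows. With knockdown ectosomes against control 10 of the 17 were lower and 1 higher, beside 26.7% and 27.0% of all rows. Their median there was -0.42, as it was for the 20 cytosolic genes. The cytosolic gene had the lower log2 fold change in 6 of the 13 pairs in that comparison. With the knockdown VARS2 (log2 change -1.49 ± 0.11, adjusted p = 1.52e-06), WARS2 (log2 change -0.95 ± 0.12, adjusted p = 4.45e-05) and LARS2 (log2 change -1.02 ± 0.14, adjusted p = 9.04e-05) were lower. The difference between cytosolic and mitochondrial genes was not tested. The 3 scaffold genes of the multi-synthetase complex were lower with the knockdown than with scramble ectosomes, beside 30.3% of all rows. AIMP1 was at -0.44, AIMP2 at -1.25 and EEF1E1 at -1.01. Against control, 1 of the 3, AIMP1, was lower with scramble ectosomes (-0.22), beside 33.2% of all rows.

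**Figure D4:**
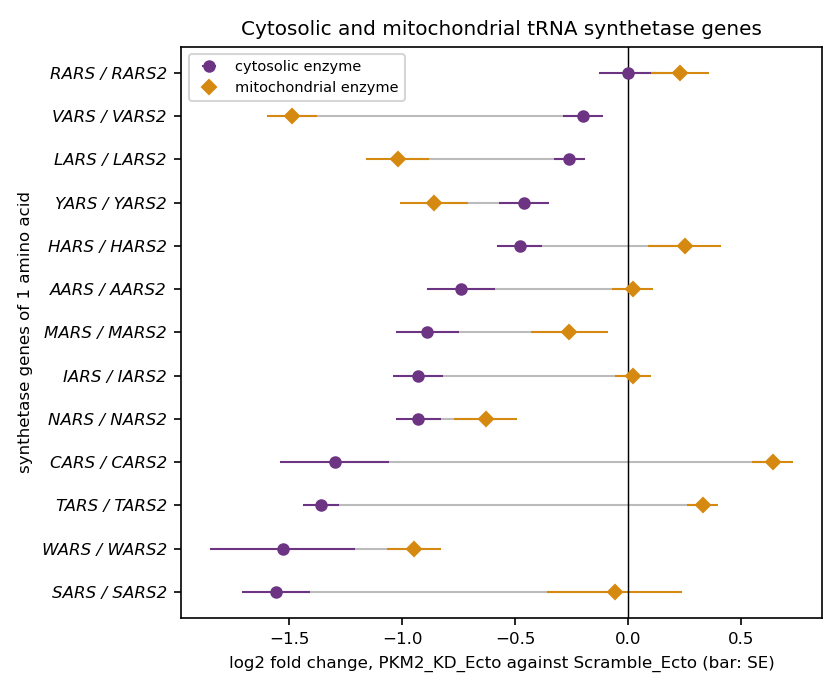
Log2 fold change of 13 cytosolic synthetase genes (circles) and their mitochondrial counterparts (diamonds) with PKM2-knockdown against scramble ectosomes, with the standard error as a bar and a grey line joining each pair. The circle lies left of the diamond in 10 of the 13 pairs.

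All 14 genes whose window holds TGATGNAA or TTNCATCA, printed above, were called lower with the knockdown than with scramble ectosomes, beside 30.3% of all rows. The log2 fold changes of these 14 genes ran from -2.69 (SLC3A2) to -0.74 (AARS), with a median of -1.22. Of the 22 genes with a window but no match, 16 were lower and 1 higher, with a median of -0.90, where 31.4% of all rows were higher. Of the 8 genes without a window, 6 were lower and 1 higher, with a median of -0.93. With scramble ectosomes against control the medians were 0.86 with a match, 0.68 without a match and 0.28 without a window. Whether a match goes with the change was not tested. Among synthetases the 7 with a match were lower with a median of -0.93, and of the 9 without a match 5 were lower and 1 higher with a median of -0.48. TRIB3, SESN2 and DDIT3, which with SLC3A2 had the largest changes between ectosomes, are among the genes without a match in this window. Windows of the mitochondrial synthetases held the element in 1 of 14 genes. A window covers only the bases next to an annotated start, and no match says only that these letters are not in it.

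Sorted by their calls in the 3 comparisons, 33 of the 44 genes fell into 3 patterns. In 16 genes (36.4%) the level was higher with scramble ectosomes, lower with the knockdown and not called between knockdown and control, a pattern held by 11.6% of all rows tested. These include DDIT3, SESN2, PSPH, SLC3A2, SLC7A11, SARS and WARS. In 9 genes (20.5%), beside 3.11% of all rows, it was higher with scramble ectosomes, and with the knockdown lower than both: ATF4, CEBPG, TRIB3, SHMT2, PYCR1, SLC7A1, SLC1A5, NARS and TARS. In 8 genes (18.2%), beside 4.95% of all rows, scramble ectosomes gave no call and the knockdown was lower than both other groups: ASNS, PSAT1, PHGDH, AARS, EPRS, IARS, KARS and YARS. Without control replicate 3, 11 of the 16 genes of the first pattern were called between knockdown and control, so that pattern depends on this library. Of them 9 were lower (DDIT3, SESN2, PSPH, MTHFD2, SLC1A4, SLC38A2, CARS, GARS and MARS), and SLC7A11 and WARS were higher.

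Genes for eIF2 and its regulators were also more often lower than higher with the knockdown. Of 13 genes for eIF2 subunits, exchange factors, kinases and phosphatase subunits, 9 were lower and none higher with knockdown than with scramble ectosomes (median -0.46), where 30.3% and 31.4% of all rows were. With scramble ectosomes against control 8 were higher and 2 lower, beside 34.6% and 33.2% of all rows. EIF2AK3, or PERK, the kinase of the endoplasmic reticulum, was at 8.84, 9.17 and 8.94 CPM, 26.4, 28.1 and 25.4 CPM and 7.85, 9.94 and 7.97 CPM. It was 2.97-fold higher with scramble ectosomes (log2 change 1.57 ± 0.12, adjusted p = 6.33e-07) and 3.1-fold lower with the knockdown (log2 change -1.63 ± 0.12, adjusted p = 9.3e-07), where its libraries overlapped with control. EIF2S2, a subunit of eIF2, EIF2B2, of its exchange factor, and PPP1R15B, the constitutive partner of the phosphatase, were lower with the knockdown (log2 changes of -1.08, -1.10 and -1.03, adjusted p = 1.93e-06, 2.13e-06 and 4.43e-06).

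Of 24 other genes known as ATF4 targets 22 passed the filter, 15 were lower and 2 higher between ectosomes (median -1.24), beside 30.3% and 31.4% of all rows. With scramble ectosomes against control 12 were higher and 5 lower, beside 34.6% and 33.2% of all rows. GDF15, a secreted stress hormone, was at 2.72, 3.06 and 0.276 CPM in control, 293, 333 and 333 CPM with scramble and 11.3, 10.4 and 10.4 CPM with knockdown ectosomes. ATF3, another zipper factor, was at 4.0, 4.05 and 1.05 CPM, 129, 128 and 132 CPM and 11.6, 12.2 and 10.9 CPM. Both were far above control with scramble ectosomes, 153-fold and 42-fold, and lower with the knockdown (log2 change -4.90 ± 0.34, adjusted p = 8.29e-07 for GDF15 and log2 change -3.48 ± 0.26, adjusted p = 1.26e-06 for ATF3). XPOT, which exports tRNA from the nucleus, and VLDLR, a lipoprotein receptor, were lower with the knockdown (log2 changes of -1.82 and -1.33, adjusted p = 6.53e-08 and 1.02e-07). Among the controls, replicate 3 was the lowest for both GDF15 and ATF3.

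Targets of the other branches of the endoplasmic reticulum stress response, ATF6 and XBP1, had larger steps. Of 12 such genes 11 were higher and 1 lower with scramble ectosomes (median 2.98), and 11 were lower with the knockdown than with scramble ectosomes (median -2.95), where 34.6%, 33.2% and 30.3% of all rows were. PDIA4, a disulfide isomerase, was at 94.3, 92.6 and 89.0 CPM, 1096, 1211 and 1188 CPM and 102, 107 and 117 CPM. HYOU1, a chaperone of that organelle, was 13.2-fold higher with scramble ectosomes and 11.6-fold lower with the knockdown (adjusted p = 6.27e-10 and 4.72e-09), and DNAJB11 and DNAJB9, co-chaperones of the same compartment, were lower with it too (log2 changes of -2.93 and -3.20, adjusted p = 5.1e-09 and 7.42e-09). No window of these 12 genes held the element searched.

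Markers of the THP-1 lineage and of hepatocytes, the cell type of the ectosome donors, were read beside these changes. The summed level of 8 myeloid markers, all above 1 CPM, was 1029 to 1325 CPM in control, 1649 to 1740 CPM with scramble and 2304 to 2477 CPM with knockdown ectosomes, so it moved with the groups, and its part in the results was not tested. Singly, 4 of the 8 were higher and 3 lower with scramble ectosomes than in control, beside 34.6% and 33.2% of all rows, and 5 were higher with knockdown than with scramble ectosomes, beside 31.4%. Of 15 hepatocyte transcripts 8 were in the table, and their sum was 3.37 to 8.14, 6.66 to 7.53 and 41.4 to 47.9 CPM. Most of the last rise was SERPINA1, which monocytes also express. Without it the sums were 2.82 to 4.35, 2.73 to 4.06 and 5.39 to 6.77 CPM, still highest with knockdown ectosomes and without overlap. APOA2, an apolipoprotein of high-density lipoprotein, was at 1.92, 2.41 and 0.938 CPM in control, 2.98, 2.37 and 1.49 CPM with scramble and 5.30, 4.13 and 5.03 CPM with knockdown ectosomes. APOA2 was higher with the knockdown than with scramble ectosomes (log2 change 1.08 ± 0.31, adjusted p = 0.0113) and than in control (log2 change 1.43 ± 0.32, adjusted p = 0.0032). APOA1 went the other way, with means of 0.676, 0.252 and 0.0803 CPM in the same order of groups. It was lower with scramble ectosomes than in control (log2 change -1.36, adjusted p = 0.0288) and not called between ectosomes (log2 change -1.57, adjusted p = 0.0774). Of the 4 hepatocyte transcripts tested, 2 were higher and none lower between ectosomes, beside 31.4% and 30.3% of all rows. Against control 2 were higher and 1 lower with the knockdown, beside 27.0% and 26.7%. The part of these transcripts in the results was not tested. ALB, APOA1, TTR and HNF4A were under 1 CPM in every group.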

How the data were processed

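RNA of 9 THP-1 libraries was sequenced after Trizol extraction and NEBNext Ultra library preparation, per the labels' protocols. The authors deposited unnormalized read counts per gene symbol. The submitters' processing notes name HISAT2 2.0.5, featureCounts 1.5.0-p3 and GRCh38/hg38. The annotation release, the strand setting and the treatment of shared reads are not given in the sources.

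Counts were tested with edgeR 4.0.16 in R 4.3.3: filterByExpr by group (18437 of 30000 rows kept, holding at least 99.8% of counts), TMM scaling, 1 quasi-likelihood model over 9 libraries with group as the only term (6 residual degrees of freedom, common biological coefficient of variation 13.3%), two-sided tests and Benjamini-Hochberg adjustment over all rows tested, with calls at an adjusted p under 0.05. The code was tested on simulated data. Standard errors were derived from the fold change and its F statistic. The alternatives, 15 in number, were DESeq2 1.42.0, other scalings, no filter, a replicate block, only the compared groups and leaving out each library.

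The members and lists were chosen with earlier results of these data known. Values in every library are given for ATF4, DDIT3, ATF5, CHAC1, TRIB3, ASNS, PHGDH and SLC7A11 and, in each role, for the 3 genes with the largest and the 1 with the smallest absolute fold change between ectosomes. From each other list up to 4 genes with the smallest p in that comparison are named, plus members that changed in opposite directions. GENCODE 29 gave coordinates, exon lengths and overlaps. By it 14 of the 44 members share over 5% of their exon bases with another gene, and 14 have a named pseudogene, so their counts may hold or lack reads of a copy. Some genes, among them 1 pair of synthetases, are not reported here.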

Additional observations from a re-analysis of the deposited data

Results flagged for a closer look

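In 9 genes both kinds of ectosomes differed from control in opposite directions, higher with scramble and lower with PKM2-knockdown ectosomes, and the difference between the ectosomes was itself called in edgeR's quasi-likelihood test. The log2 fold changes against control were 0.58 and -0.43 for ATF4, which differ by -1.0, and 0.85 and -0.95 for CEBPG, which differ by -1.80. TRIB3 had 2.26 and -1.24, a difference of -3.50. SHMT2 had 0.73 and -0.68 (difference -1.40), and PYCR1 had 0.48 and -1.13 (difference -1.60). The carriers SLC7A1 and SLC1A5 had 0.84 and -0.64 (difference -1.48) and 1.01 and -0.65 (difference -1.66). The synthetases NARS and TARS had 0.53 and -0.40 (difference -0.93) and 0.95 and -0.41 (difference -1.36). Both effects were set against the same controls, of which replicate 3 was the lowest in all 9 genes. For TRIB3 and SLC1A5 the knockdown libraries overlapped with the controls, and their lower calls were lost in some alternatives. The higher call of PYCR1 with scramble ectosomes was lost with scaling by library totals.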

How the results depend on the processing

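Over 15 alternatives, 33 of the 34 calls with scramble ectosomes against control held in every one, 32 of 38 between ectosomes and 22 of 27 with knockdown ectosomes against control. The exceptions were PYCR1 in the first comparison, ATF5, CHAC1, ASNS, SLC7A5, LARS and YARS in the second, and TRIB3, ASNS, SLC1A5, AARS and FARSA in the third. ASNS against control was not called without control replicate 1 or 2, without any 1 of the PKM2_KD_Ecto replicates or with only the compared groups fitted (adjusted p from 6.51e-05 to 0.11). Scaling by library totals alone raised the count of genes higher between ectosomes from 2 to 4. Leaving out each library gave 28 to 30 genes higher and 6 to 7 lower with scramble ectosomes against control, 2 to 3 higher and 33 to 39 lower between ectosomes, and 3 to 5 higher and 19 to 33 lower with knockdown ectosomes against control. Of these, control replicate 3 gave the 5 and the 33. The log2 change of PHGDH with scramble ectosomes, 0.01 over all libraries, ran from -0.24 without control replicate 3 to 0.18 without control replicate 1. The cause of these changes was not tested. Libraries with the same replicate number did not deviate together (9 pairs, r from -0.094 to 0.067). With 3 libraries per group this cannot exclude that equal numbers mark a shared batch or culture, and the labels do not say. A fit with the replicate number as a block gave 28 higher and 6 lower, 3 higher and 36 lower, and 3 higher and 24 lower in the 3 comparisons, gaining ALDH18A1 between ectosomes and losing no call. ASNS had the lowest mean level of the 44 genes, so its changes rest on the fewest reads.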

Other observations

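Some ATF4 targets outside the module did not follow it, and these were chosen after their values were seen. VEGFA, an angiogenic factor that hypoxia also induces, was at 386 ± 191 CPM in control, 1909.7 ± 21.6 CPM with scramble and 1688 ± 128 CPM with knockdown ectosomes (mean ± SD, n = 3). It was higher than control with either kind (log2 change 2.31 ± 0.32, adjusted p = 8.81e-05 for scramble and log2 change 2.13 ± 0.32, adjusted p = 0.000259 for knockdown), and the difference between ectosomes was not called (log2 change -0.18 ± 0.31, adjusted p = 0.638). Every knockdown library was still below every scramble library, and without control replicate 3 VEGFA was called lower (log2 change -0.18, adjusted p = 0.00847). KLHL24 went against the module, with 23.8 ± 2.56, 14.8 ± 0.648 and 33.3 ± 4.85 CPM, and was higher with knockdown than with scramble ectosomes (log2 change 1.17 ± 0.13, adjusted p = 1.74e-05). SLC43A1, a transporter of large neutral amino acids, fell with scramble ectosomes from 67.3 ± 6.28 to 21.6 ± 1.64 CPM (log2 change -1.64 ± 0.09, adjusted p = 9.52e-08), where the 7 transporters of the module rose.

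Of the kinases that phosphorylate eIF2, EIF2AK2, or PKR, an interferon-induced sensor of double-stranded RNA, was at 80.6 ± 26.8, 279 ± 13.3 and 228 ± 18.2 CPM. It was above control with either kind of ectosome (log2 change 1.79 ± 0.21, adjusted p = 1.94e-05 for scramble and log2 change 1.5 ± 0.20, adjusted p = 0.000129 for knockdown). EIF2AK4, or GCN2, the sensor of uncharged tRNA, was not called in any of the 3 comparisons (log2 change 0.00 ± 0.08, adjusted p = 0.963 between ectosomes).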
